A study of Mus musculus with 20 samples.

Results

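The heat shock chaperone genes were 10 of the 17101 genes measured by RNA-Seq in donor T cells. The set holds 5 cytosolic genes that heat or proteotoxic stress can induce (*Hspa1a*, *Hspa1b*, *Dnajb1*, *Hsph1* and *Hsp90aa1*), the constitutive cytosolic chaperones *Hspa8* and *Hsp90ab1*, the mitochondrial chaperonin pair *Hspd1* and *Hspe1*, and *Hsf1*. It was chosen by symbol after *Hspa1a* and *Hspa1b* had been seen to differ most between KO and WT cells. All 10 genes had reads, and all passed the filter on low values (a mean normalized count of at least 10) in every comparison. The values of KO against WT cells selected the set, so for these genes they are given as a description, with no test. The inducible group was marked off by what is known of these genes, not by these data, in which *Dnajb1* and *Hsp90aa1* behaved otherwise than *Hspa1a* and *Hspa1b*.

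Donor T cells were sorted from the spleen on day +10 of B6 into F1 haploidentical allo-BMT, a mouse model of acute graft-versus-host disease. KO donors carried a DNMT3a KO (CD4-Cre 2loxP), in which Cre under the *Cd4* promoter deletes the floxed *Dnmt3a* gene in the T cell lineage, and WT donors were their DNMT3a WT littermates. All 5 groups shared the transplant, the irradiated F1 recipients (8 to 12 weeks old), donors of 6 to 12 weeks, and the interval from transplant to sorting. There were 5 groups of 4 libraries, made up of CD4+ and CD8+ cells of each genotype and, from KO donors, cells positive for both coreceptors (DP), numbered 2, 3, 5 and 6 in WT and 1 to 4 in KO. A number is called an animal here, a reading that the labels do not state. WT DP cells were not analysed here.

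Cells answer heat, misfolded protein and other proteotoxic stress by releasing the transcription factor HSF1 from chaperones that hold it inactive, after which it binds heat shock elements in the promoters of chaperone genes. HSP70 proteins fold clients in cycles of ATP binding that a J-domain partner starts and a nucleotide exchange factor such as HSPH1 (HSP110) ends, while HSP90 completes the folding of kinases and steroid receptors. In T cells the constitutive forms are abundant, and the intronless inducible HSP70 genes are a textbook readout of acute stress.

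Reads on genes numbered between 37547651 and 46966318 per library. Between 11783 and 14677 genes had reads, with the lowest number in DP cells of KO animal 3 and at least 13203 in every other library. *Dnmt3a* was counted at 650 to 2007 normalized counts in KO libraries and at 3542 to 5171 in WT libraries. CD4+ libraries of both genotypes held 44804 to 74386 normalized counts of *Cd4*. WT CD8+ libraries held 9.88 to 79.6 and KO CD8+ libraries 302 to 458. DP libraries held both coreceptors (*Cd4* 8758 to 15351, *Cd8a* 41594 to 68516). The KO CD4+ library of animal 1 held 3771 normalized counts of *Cd8a*. The 5 B cell markers in the table summed to 55.7 to 260.0 in WT and to 646 to 2282 in KO libraries, nearly all of it *Cd79b* (581 to 2245 in KO libraries), while *Ms4a1* and *Pax5* were at 7.35 or less in every library. Of the 6 erythroid markers, the table held 1.

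*Hspa1a* and *Hspa1b* are intronless copies on the minus strand of chromosome 17 (GRCm38.p6, the assembly of mm10), at 34969359 to 34972156 and 34956429 to 34959238. Their promoters are shown because these 2 genes carry the difference between KO and WT cells. The 250 bases before the RefSeq start of *Hspa1a* (chr17:34972157-34972406) and of *Hspa1b* (chr17:34959239-34959488) are given on the transcribed strand, with capitals for a pair of inverted heat shock element units (GAANNTTC or TTCNNGAA, each of which reads alike on both strands).
Hspa1a: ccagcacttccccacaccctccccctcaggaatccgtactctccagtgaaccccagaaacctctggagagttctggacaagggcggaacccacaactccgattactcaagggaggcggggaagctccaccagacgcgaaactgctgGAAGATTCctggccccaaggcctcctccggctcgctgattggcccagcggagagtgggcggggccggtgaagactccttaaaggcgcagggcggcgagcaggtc
Hspa1b: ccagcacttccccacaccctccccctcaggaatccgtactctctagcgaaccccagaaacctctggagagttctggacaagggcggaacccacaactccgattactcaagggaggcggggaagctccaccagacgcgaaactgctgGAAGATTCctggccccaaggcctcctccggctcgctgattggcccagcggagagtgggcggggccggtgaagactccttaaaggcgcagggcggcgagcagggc
The 250 bases differed at 3 positions (98.8% identical), none of them within the motif, which stood at -104 from the start in both. No gene was annotated in either window. Of all 32851 RefSeq promoters, 12.8% held at least 1 match in the same 250 bases, so a match alone is common.

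RefSeq promoters were on hand for 6 of the 10 genes. *Hspe1* held 3 overlapping matches that share units, an arrangement of at least 2 overlapping matches that 0.466% of all promoters had, and *Hsph1* held 1. These are given as 30 bases around the matches, which lay at chr1:55088053-55088082 (plus strand) for *Hspe1*, within the annotated span of its head-to-head neighbour *Hspd1*, and at chr5:149636351-149636380 (minus strand) for *Hsph1*, within its own annotated span.
Hspe1: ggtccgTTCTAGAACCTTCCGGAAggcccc
Hsph1: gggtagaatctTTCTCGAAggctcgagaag
The second start of *Hspd1* had the same stretch at -144, -139 and -134 on its own strand, and its first start had no match. Neither RefSeq start of *Dnajb1* (chromosome 8, 83608175 to 83612653, plus strand) had a match in its window, which says only that these letters are not in those 250 bases. CG dinucleotides numbered 14 in the window of *Hspa1a* and 15 in that of *Hspa1b*, 27 and 33 at the starts of *Dnajb1*, and 6 in the median promoter.

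*Hspa1a*, the main stress-inducible cytosolic HSP70, was abundant in all WT libraries and nearly unread in all KO libraries. In WT CD4+ cells it reached 2221, 4506, 7352 and 10881 normalized counts in animals 2, 3, 5 and 6, and in WT CD8+ cells of the same animal numbers 1435, 2664, 4529 and 6483. KO CD4+ cells of animals 1 to 4 held 33.5, 34.4, 82.1 and 13.2. KO CD8+ cells of these animals held 14.99, 4.12, 25.8 and 57.8, and the DP cells 6.47, 0, 126.6 and 38.4, where the 0 of animal 2 allows up to 3 reads. No KO library came near a WT library: the highest KO value was 126.6 and the lowest WT value 1435. These values rest on 0 to 102 reads per KO library and 1645 to 11841 reads per WT library. The WT mean was 153 times the KO mean in CD4+ cells and 147 times in CD8+ cells. On the log2(normalized count + 1) scale, KO minus WT was -7.26 (SE 0.56, n = 4 and 4) in CD4+ cells and -7.42 (SE 0.71) in CD8+ cells, and with each library left out in turn -7.69 to -6.83 and -7.97 to -6.80. In each subset *Hspa1a* had the most negative difference and *Hspa1b* the next among all genes tested, as the choice of the set implies.

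*Hspa1b*, which encodes almost the same protein, followed *Hspa1a* in every group. WT CD4+ libraries held 1297, 2717, 4331 and 6583 normalized counts and WT CD8+ libraries 908, 1627, 2659 and 3854, in animals 2, 3, 5 and 6. KO CD4+ libraries held 18.2, 25.5, 38.2 and 14.3, KO CD8+ libraries 7.50, 4.12, 21.3 and 49.2, and KO DP libraries 3.24, 0, 63.3 and 28.8. KO and WT values again lay far apart, with a log2 difference of -7.08 (SE 0.46) in CD4+ and -7.05 (SE 0.70) in CD8+ cells. The ratio of *Hspa1a* to *Hspa1b* stayed within 1.58 to 1.71 in the 8 WT libraries (1.67 ± 0.0435, SD) and within 0.923 to 2.15 in the 11 KO libraries with reads. Of the 47-base windows of the longest *Hspa1a* transcript, 59.6% also occur in *Hspa1b*, and of those of *Hspa1b* 63.1% occur in *Hspa1a*. How reads that fit both genes were counted is not stated, so the division between the copies is uncertain.

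**Figure D1:**
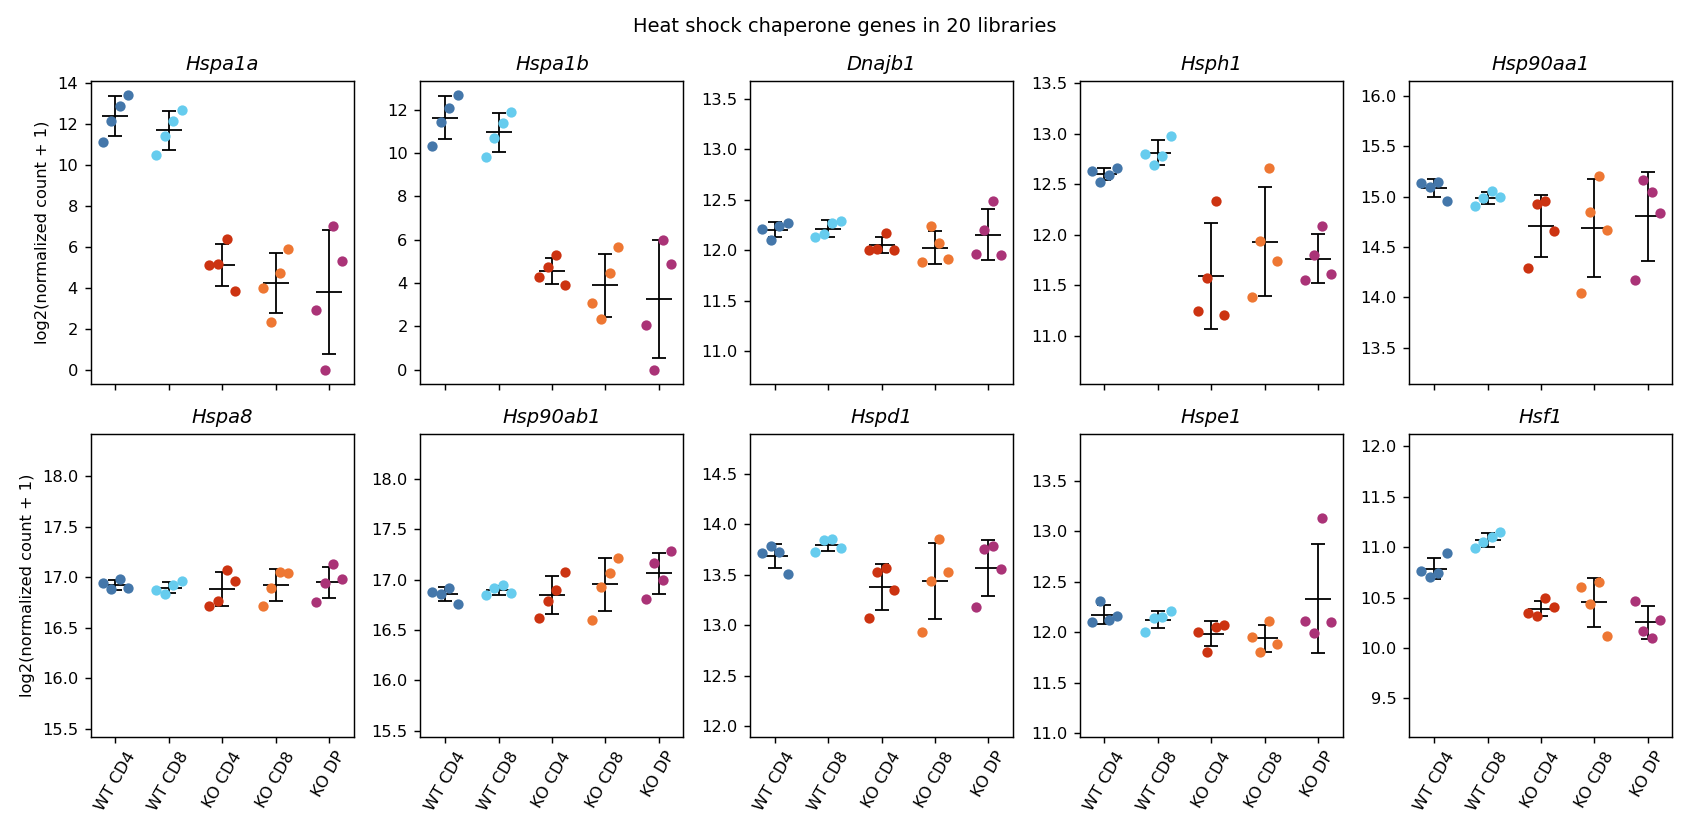
Level of each of the 10 genes in 20 libraries, on the y axis as log2(normalized count + 1) with a range of its own per gene, by group on the x axis. Points are libraries, in order of animal number, and black marks give the group mean and SD (n = 4). *Hspa1a* and *Hspa1b* show a gap between WT and KO groups (lowest WT value 908, highest KO value 126.6 normalized counts), and the other 8 genes lie within a far narrower range.

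*Dnajb1*, the J-domain partner that delivers clients to HSP70, did not follow them. The 8 WT libraries held 4401 to 5014 normalized counts, KO CD4+ libraries 4107 to 4594, KO CD8+ libraries 3785 to 4820 and KO DP libraries 3972 to 5744. KO and WT ranges overlapped in both subsets, and KO minus WT was -0.16 (SE 0.07) in CD4+ and -0.19 (SE 0.09) in CD8+ cells on the log2 scale. The fold between the means was 1.11 and 1.14.

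*Hsph1*, the HSP110 exchange factor of HSP70, was lower in KO cells with wide spread between animals. WT CD4+ libraries held 6353, 5895, 6174 and 6497 normalized counts and WT CD8+ libraries 7151, 6603, 7052 and 8076. KO CD4+ libraries held 2429, 3046, 5176 and 2363, KO CD8+ libraries 2667, 3919, 6491 and 3409, and KO DP libraries 3004, 3565, 4353 and 3129. KO animal 3 was the highest KO animal in all 3 subsets, and its CD4+ and CD8+ cells still lay below every WT library of the same subset. KO minus WT was -1.01 (SE 0.21) in CD4+ and -0.88 (SE 0.23) in CD8+ cells, that is, WT means 1.91 and 1.75 times the KO means.

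*Hsp90aa1*, the inducible HSP90, ranged from 30656 to 36333 normalized counts over the WT libraries. KO libraries spread over 20118 to 31846 in CD4+, 16871 to 37716 in CD8+ and 18490 to 36637 in DP cells. KO animal 1 was the lowest library in each KO subset, and KO and WT ranges overlapped in both subsets. KO minus WT was -0.37 (SE 0.14) in CD4+ and -0.29 (SE 0.20) in CD8+ cells.

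The constitutive chaperones differed little. *Hspa8*, the cognate HSP70 of all cells, was at 116874 to 129276 normalized counts in WT and at 107679 to 143500 in KO libraries, and KO minus WT was -0.04 (SE 0.11) in CD4+ and 0.03 (SE 0.10) in CD8+ cells. *Hsp90ab1*, the constitutive HSP90, was at 110947 to 125875 in WT and at 99583 to 159604 in KO libraries, with differences of -0.01 (SE 0.12) and 0.06 (SE 0.13). For both genes the KO values lay on either side of the WT values. Under quantile normalization the differences were -0.20 and -0.23 for *Hspa8* and -0.18 and -0.16 for *Hsp90ab1*, so the sign in CD8+ cells depends on the scaling. The median of all genes was 0.01 in both subsets under this scaling, beside -0.05 and -0.04 without it.

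In the mitochondrion, *Hspd1* (HSP60) forms the folding chamber and *Hspe1* (HSP10) its lid. *Hspd1* was at 11653 to 14780 normalized counts in WT libraries, at 8599 to 12190 in KO CD4+, 7843 to 14803 in KO CD8+ and 9293 to 14101 in KO DP libraries. *Hspe1* was at 4117 to 5073 in WT and at 3572 to 4427 in all KO libraries but 1. The exception was the DP library of KO animal 3, with 9001, the library with the fewest genes read. KO minus WT was -0.30 (SE 0.11) and -0.36 (SE 0.16) for *Hspd1*, and -0.19 (SE 0.08) in both CD4+ and CD8+ cells for *Hspe1*. In CD4+ cells the 4 KO values of *Hspe1* lay below all WT values (4298 against 4384 at the nearest), and the other 3 ranges met.

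*Hsf1*, the factor that drives the response, was lower in KO cells of both subsets. WT CD4+ libraries held 1733, 1671, 1711 and 1960 normalized counts, WT CD8+ libraries 2032, 2126, 2192 and 2275. KO CD4+ libraries held 1302, 1275, 1442 and 1356, KO CD8+ libraries 1561, 1389, 1611 and 1110, and KO DP libraries 1417, 1150, 1097 and 1242. The highest KO library (1611) lay below the lowest WT library (1671), and KO minus WT was -0.40 (SE 0.09) in CD4+ and -0.62 (SE 0.12) in CD8+ cells, folds of 1.32 and 1.52 between the means.

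Counted by the limma threshold (adjusted p of 0.05 over all genes tested), 4 of the 10 genes were lower and 0 higher in KO CD4+ cells, and the same 4 of 10 in KO CD8+ cells (*Hspa1a*, *Hspa1b*, *Hsph1* and *Hsf1*). Over all genes tested, 9.77% were called lower and 8.59% higher in KO CD4+ cells, and 12.5% lower and 12.6% higher in KO CD8+ cells. The KO values lay wholly below the WT values for 5 of the 10 genes in CD4+ cells, where 13.3% of all genes did so, and for 4 in CD8+ cells, where 15.5% did so. The set was chosen on these contrasts, so nothing is read from the shares. Without WT CD4+ animal 6, *Hsf1* was no longer past the threshold in CD4+ cells (log2 differences of *Hsf1* without 1 library -0.43 to -0.34). In CD8+ cells *Hsph1* was past it in 4 of 8 such fits, and not without KO animal 4 or WT animals 2, 5 or 6 (-1.13 to -0.70). Leaving out KO animal 3 brought the count to 6 in each subset, adding *Hsp90aa1* and *Hspd1* in CD4+ and *Hspd1* and *Hspe1* in CD8+ cells. Leaving out KO animal 2 brought it to 5 in each, adding *Hsp90aa1* in CD4+ and *Dnajb1* in CD8+ cells. Under quantile normalization it was 6 in CD4+ and 4 in CD8+ cells. The median log2 difference of the 10 genes was -0.34 in CD4+ and -0.33 in CD8+ cells, beside -0.05 and -0.04 over all genes tested.

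Levels of different genes were compared per kilobase of exon. In WT CD4+ cells the mean normalized count per kb was 59149 for *Hspa8*, 47327 for *Hsp90ab1*, 12205 for *Hsp90aa1*, 6026 for *Hspe1*, 5099 for *Hspd1*, 2230 for *Hspa1a*, 1780 for *Hsph1*, 1463 for *Dnajb1*, 1328 for *Hspa1b* and 727 for *Hsf1*. The constitutive pair thus stood well above the inducible genes even in WT cells. In KO CD4+ cells *Hspa1a* and *Hspa1b* stood at the bottom of this order, at 14.6 and 8.56 per kb, below *Hsf1* at 552, while *Hspa8* stood at 57634. Many 47-base windows of *Hspa8* (70.7%), *Hsp90aa1* (52.3%), *Hspd1* (44.1%) and *Hspe1* (36.7%) also occur in 1 other annotated gene, so the levels of these genes are less certain than those of *Hsph1* and *Hsf1*, which shared none.

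*Hspa1a* and *Hspa1b* were also set against *Hspa8* within each library, as their summed normalized counts per kb for every 1000 of *Hspa8*, a measure that a single scaling factor per library cannot move. In WT CD4+ cells the ratio was 20.9, 45.0, 67.8 and 108.0 in animals 2, 3, 5 and 6, and in WT CD8+ cells 14.6, 27.6, 43.4 and 60.8. KO CD4+ cells of animals 1 to 4 had ratios of 0.360, 0.403, 0.656 and 0.161, KO CD8+ cells of 0.157, 0.0508, 0.261 and 0.594, and KO DP cells of 0.0658, 0, 0.994 and 0.389. The highest KO ratio lay below the lowest WT ratio. The mean log2 ratio differed by -7.19 (KO minus WT) in CD4+ cells (pooled SD 0.93) and by -7.42 in CD8+ cells (pooled SD 1.22).

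**Figure D2:**
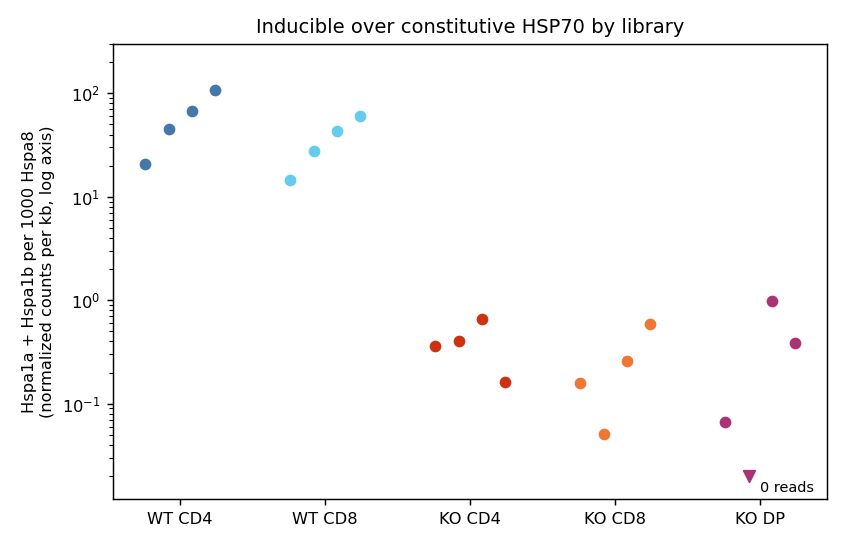
Summed *Hspa1a* and *Hspa1b* per 1000 *Hspa8*, each in normalized counts per kb of exon, on a log y axis, by group on the x axis. Points are libraries and the triangle at the lower edge marks the DP library of KO animal 2, which had no reads for either gene. WT libraries lie between 14.6 and 108.0, and KO libraries at 0.994 or below.

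The comparison of CD4+ and CD8+ cells within a genotype had no part in the choice of genes and was tested. Between WT CD4+ and WT CD8+ cells, 2 of the 10 genes passed the threshold, and 44.5% of all 12559 genes did. Both were lower in CD4+ cells, *Hsph1* by a log2 difference of -0.21 (SE 0.06, limma adjusted p = 0.0111) and *Hsf1* by -0.29 (SE 0.06, adjusted p = 0.00253), and in both the CD4+ values lay below all CD8+ values. *Hspa1a* was higher in CD4+ cells in 4 of 4 animals, at 1.55 to 1.69 times the CD8+ level, and *Hspa1b* in 4 of 4 at 1.43 to 1.71 times. The spread between animals is larger than this step, and the fit without the animal did not separate the subsets (*Hspa1a* 0.71, SE 0.47, adjusted p = 0.241; *Hspa1b* 0.68, SE 0.46, adjusted p = 0.252). Libraries of 1 WT animal number were high or low together, and in the fit with that number as a block both passed (adjusted p = 4.07e-08 and 4.24e-07), which brought the count to 4 of 10, beside 48.8% of all genes with the block. Without WT CD4+ animal 2, whose *Hspa1a* was the lowest of its group, both passed without the block (adjusted p = 0.0410 and 0.0379), and without WT CD4+ animal 6 *Hsp90aa1* passed (adjusted p = 0.0190). In the fit that pooled the spread of all 20 libraries, no member passed, with adjusted p = 0.651 for *Hsph1* and 0.103 for *Hsf1*.

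**Figure D3:**
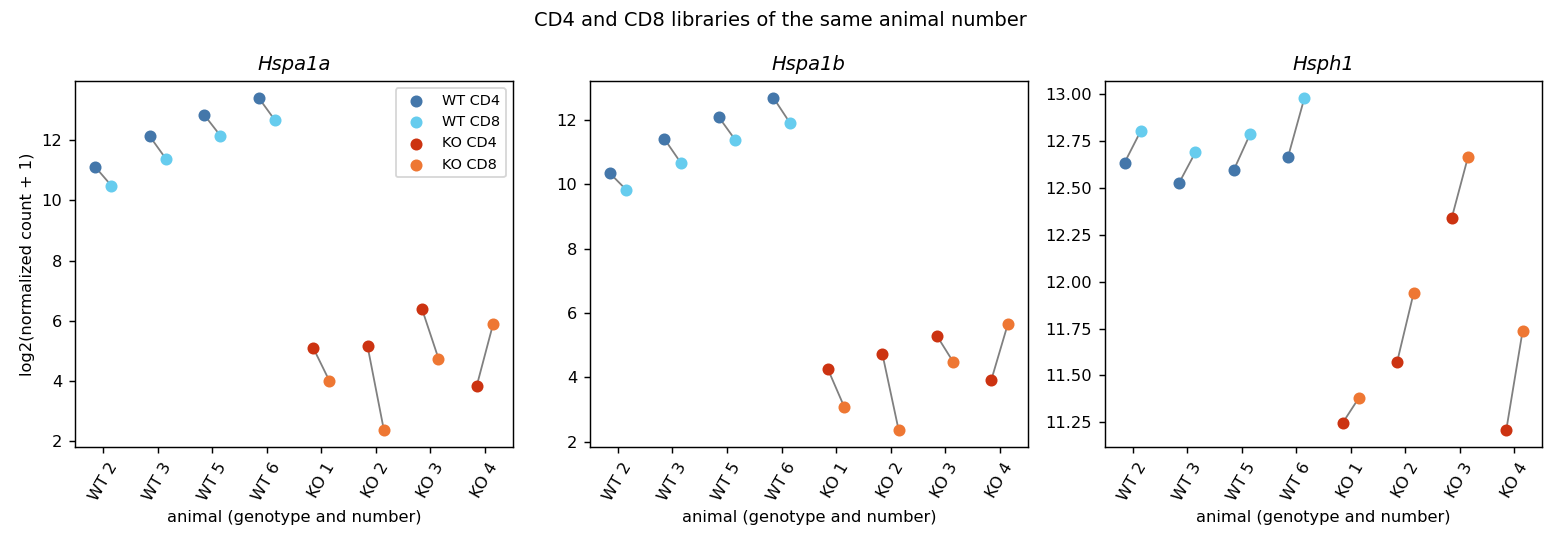
*Hspa1a*, *Hspa1b* and *Hsph1* in the CD4+ and CD8+ libraries of each animal number, on the y axis as log2(normalized count + 1), with the animals of both genotypes on the x axis. Lines join the 2 libraries of an animal. In WT animals CD4+ cells hold 1.55 to 1.69 times the *Hspa1a* of CD8+ cells, and *Hsph1* is higher in CD8+ cells in all 8 animals.

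Between KO CD4+ and KO CD8+ cells, 0 of the 10 genes passed in limma (0 with an unadjusted p under 0.05), and 0 passed with edgeR or DESeq2. Of all genes, 4.22% passed in limma, and edgeR called 457 and DESeq2 956 of 12189. *Hsph1* was lower in CD4+ cells in 4 of 4 KO animals, at 0.693 to 0.911 times the CD8+ level (log2 difference -0.34, SE 0.30, adjusted p = 0.686), and with the animal as a block it passed (adjusted p = 0.0130), 1 of 10 members beside 18.9% of all genes in that fit. *Hspa1a* had ratios of CD4+ to CD8+ cells from 0.228 to 8.35 in the KO animals, above 1 in 3 of 4, on few reads (log2 difference 0.87, SE 0.81, adjusted p = 0.698). The SEs of this comparison reached 0.81 for these low counts, so a step of the size seen in WT animals was not detectable in KO cells.

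KO DP cells were compared with the single-positive KO cells. Against KO CD8+ cells, 0 of 10 genes passed in limma, edgeR and DESeq2 (0 with an unadjusted limma p under 0.05), beside 0.00823% of all genes in limma. Of 12153 genes, edgeR called 1 and DESeq2 3. Against KO CD4+ cells, 0 of 10 passed with each tool (0 unadjusted), beside 1.95% of all genes in limma. Of 12175 genes, edgeR called 192 and DESeq2 728. Without *Hspa1a* and *Hspa1b*, the log2 differences lay between -0.20 and 0.40 against CD8+ cells and between -0.14 and 0.35 against CD4+ cells, with SEs up to 0.28 and 0.24. The highest of each was *Hspe1*, which rests on the DP library of KO animal 3. Without that library its difference was 0.13 from CD8+ and 0.08 from CD4+ cells. With the animal as a block no member passed either (limma adjusted p of at least 0.405 and 0.238). That fit called 1 of 12153 genes against CD8+ cells and 860 of 12175 against CD4+ cells.

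Whether the KO against WT difference itself differed between CD4+ and CD8+ cells was tested as an interaction. None of the 10 genes passed in limma (0 of 10 with an unadjusted p under 0.05), edgeR or DESeq2, beside 0.0161% of all genes in limma. Of 12446 genes, edgeR called 1 and DESeq2 21. The largest interaction outside *Hspa1a* and *Hspa1b* was that of *Hsf1*, at 0.22 (SE 0.14, adjusted p = 0.970), and that of *Hspa1a* was 0.16 (SE 0.99).

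In order of level, *Hspa1a* and *Hspa1b* ran from WT CD4+ over WT CD8+ to the 3 KO groups, whose values overlapped throughout. WT CD4+ and WT CD8+ values overlapped too, and passed the test only with the animal as a block or without WT CD4+ animal 2. *Hsf1* ran from WT CD8+ (2156 ± 103, SD, n = 4) over WT CD4+ (1769 ± 130) to KO CD8+ (1418 ± 226), KO CD4+ (1344 ± 73.8) and KO DP (1226 ± 140), and the 3 KO groups did not differ beyond their spread. *Hsph1* had the same upper end, WT CD8+ (7220 ± 618) and WT CD4+ (6230 ± 259), followed by KO CD8+ (4121 ± 1661), KO DP (3513 ± 609.5) and KO CD4+ (3253 ± 1318) cells, which overlapped. The library of KO CD8+ animal 3 (6491) also reached into the WT CD4+ range. For the other 6 genes, the groups next to each other in order overlapped.

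The other genes of the chaperone network were taken from lists by family, 99 genes in the table and 93 tested in each subset, which were written with earlier results of these data known. In KO CD4+ cells 9 were lower and 8 higher, and in KO CD8+ cells 7 were lower and 9 higher, with medians of -0.06 and -0.04 beside -0.05 and -0.04 over all genes. The shares were 9.68% lower and 8.60% higher in CD4+ cells, close to the 9.77% and 8.59% of all genes, and 7.53% and 9.68% in CD8+ cells, below the 12.5% and 12.6% of all genes, so these counts are no result about the chaperones as a whole. The counts by chaperone family below rest on 25 genes at most and are to be read beside these shares, and nothing is concluded from them. The counts over all families depend on single libraries. The 9 became 4 without KO CD4+ animal 1 or WT CD4+ animal 2, 3 or 5, 1 without WT CD4+ animal 6 and 23 without KO CD4+ animal 3, and the 8 became 3 to 5 without KO animal 1 or 4 or any WT animal. The 7 became 27 without KO CD8+ animal 3 and 3 or 4 without KO CD8+ animal 2 or any WT CD8+ animal, and the 9 became 5 without WT CD8+ animal 3 or 5. KO animal 3 also differed from the other KO animals in neutrophil markers: *S100a8* was at 468 to 1981 in its 3 libraries, at 415 to 811 in WT libraries and at 0 to 115 in the other KO libraries.

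Of the other HSP70 and HSP110 genes, 0 of 7 tested passed in either subset. The differences were -0.82 and -1.06 for *Hspa1l*, the neighbour of *Hspa1a* on chromosome 17, and -0.08 and -0.11 for *Hspa4*, of the HSP110 family. Among 15 cytosolic J-domain genes, 1 was lower and 1 higher in CD4+ cells and 0 and 2 in CD8+ cells: *Dnajb12* rose in both (0.49, SE 0.08, adjusted p = 0.00626, and 0.51, SE 0.08, adjusted p = 0.00384), *Dnaja2* rose in CD8+ cells (0.31, adjusted p = 0.00447) and *Dnajb2* fell in CD4+ cells (-1.02, adjusted p = 0.0392). Of 3 small heat shock proteins tested, 0 passed, with *Cryab* at -1.28 and -1.14.

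Co-chaperones of HSP70 and HSP90 were called in both directions, with 4 lower and 2 higher of 25 in CD4+ cells (16% and 8%, beside 9.77% and 8.59% of all genes). In CD8+ cells 5 were lower and 2 higher (20% and 8%, beside 12.5% and 12.6% of all genes). *Fkbp5*, an HSP90 co-chaperone of the glucocorticoid receptor and a target of it, was at 29401 to 32981 normalized counts in KO CD4+ against 11290 to 15859 in WT CD4+ libraries, and at 21264 to 27022 against 9411 to 11102 in CD8+ cells. No values overlapped, and the rise was 1.24 (SE 0.11, adjusted p = 0.000560) and 1.26 (SE 0.09, adjusted p = 0.000172). *Ppid*, the cyclophilin 40 partner of HSP90, was at 1003 to 1698 against 2263 to 2724 in CD4+ and at 1044 to 2309 against 3166 to 3380 in CD8+ cells. It fell, with log2 differences of -0.97 (SE 0.16, adjusted p = 0.00576) and -1.19 (SE 0.21, adjusted p = 0.00478). *Ppp5c*, a phosphatase of the HSP90 complex, fell in CD8+ cells (-0.52, adjusted p = 0.00643), and *Chordc1* fell in CD4+ cells (-0.64, adjusted p = 0.0177) and passed in CD8+ cells too (-0.49). The others past the threshold were *Tomm34* (-0.38 and -0.39), in CD4+ cells *Cdc37l1* (-0.46) and *Bag1* (0.32), and in CD8+ cells the ubiquitin ligase *Stub1* (-0.40) and *Sugt1* (0.25).

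Of 13 subunits of the cytosolic chaperonin TRiC and of prefoldin, 2 were higher in CD4+ cells (*Cct2* 0.30, adjusted p = 0.0388; *Pfdn6* 0.28, adjusted p = 0.0404) and 1 in CD8+ cells (*Cct2* 0.28, adjusted p = 0.00985), and 0 were lower. Of 11 other mitochondrial chaperones and proteases, 1 was lower and 1 higher in CD4+ cells and 1 lower and 2 higher in CD8+ cells. *Trap1*, the mitochondrial HSP90, fell (-0.31, adjusted p = 0.0258, and -0.37, adjusted p = 0.0170), and *Clpx*, of the ClpXP protease, rose (0.32, adjusted p = 0.0406, and 0.32, adjusted p = 0.0169), as did *Grpel1* in CD8+ cells (0.25, adjusted p = 0.0312). The 16 chaperones of the endoplasmic reticulum had medians of -0.38 and -0.42, below those of all genes. Of these, 3 of 16 were lower and 1 higher in CD4+ cells, the lower ones being the abundant chaperones *Hspa5* (BiP, -0.59, adjusted p = 0.0499), *Hsp90b1* (-0.56, adjusted p = 0.0411) and *Calr* (-0.52, adjusted p = 0.0484), and the higher one *Sil1* (0.45). In CD8+ cells 1 was lower (*Dnajb9*, -0.32, adjusted p = 0.0485) and 2 were higher (*Sil1*, 0.42, adjusted p = 0.0435; *Dnajc10*, 0.29, adjusted p = 0.0261). Of the other heat shock factors *Hsf2* and *Hsf4* were tested, with the HSF binding protein *Hsbp1*, and of these 3 genes *Hsf4* rose in CD4+ cells (1.11, SE 0.22, adjusted p = 0.0104) and 0 passed in CD8+ cells.

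The stress-inducible genes outside the chaperones did not move as 1 group, with 2 lower and 1 higher of 5 in each subset. *Sqstm1*, which encodes the autophagy receptor p62, rose (0.45, adjusted p = 0.00944, and 0.60, adjusted p = 0.00357). *Ier5*, an HSF1-linked immediate early gene, fell (-0.55, adjusted p = 0.0178, and -0.47, adjusted p = 0.0219), as did *Hmox1* in CD4+ cells (-0.73, adjusted p = 0.0303). Of the genes that the naming rule picked outside the 10, 8 of 19 in CD4+ cells and 10 of 18 in CD8+ cells, *Fosb*, *Fos* and *Jun* included, kept their call without any single library. The 11 others in CD4+ cells were each lost without WT animal 6 (adjusted p from 0.0530 to 0.123), and the 8 others in CD8+ cells without WT animal 5 (adjusted p from 0.0562 to 0.146), and most of them without further libraries. Other settings ended some of these calls. In CD4+ cells the joint fit of the 20 libraries ended those of *Dnajb2*, *Pfdn6*, *Trap1*, *Hspa5*, *Hsp90b1*, *Calr*, *Hsf4* and *Hmox1* (adjusted p from 0.0519 to 0.197), and edgeR those of *Dnajb2*, *Hspa5*, *Hsp90b1* and *Calr* (0.0575 to 0.0768). *Hspa5* and *Calr* were also lost without the filter (0.0583 and 0.0570), and *Cct2*, *Pfdn6* and *Hmox1* under quantile normalization (0.131, 0.0530 and 0.0504). In CD8+ cells quantile normalization ended the calls of *Cct2* (0.120) and *Dnajb9* (0.134), and the joint fit those of *Grpel1*, *Sil1*, *Dnajb9* and *Ier5* (0.0681 to 0.242). Without the filter *Sil1* (0.0524) and *Dnajb9* (0.0598) were lost, and *Dnajb9* also with a pseudocount of 10 (0.0507) or a common 75th percentile (0.0510).

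**Figure D4:**
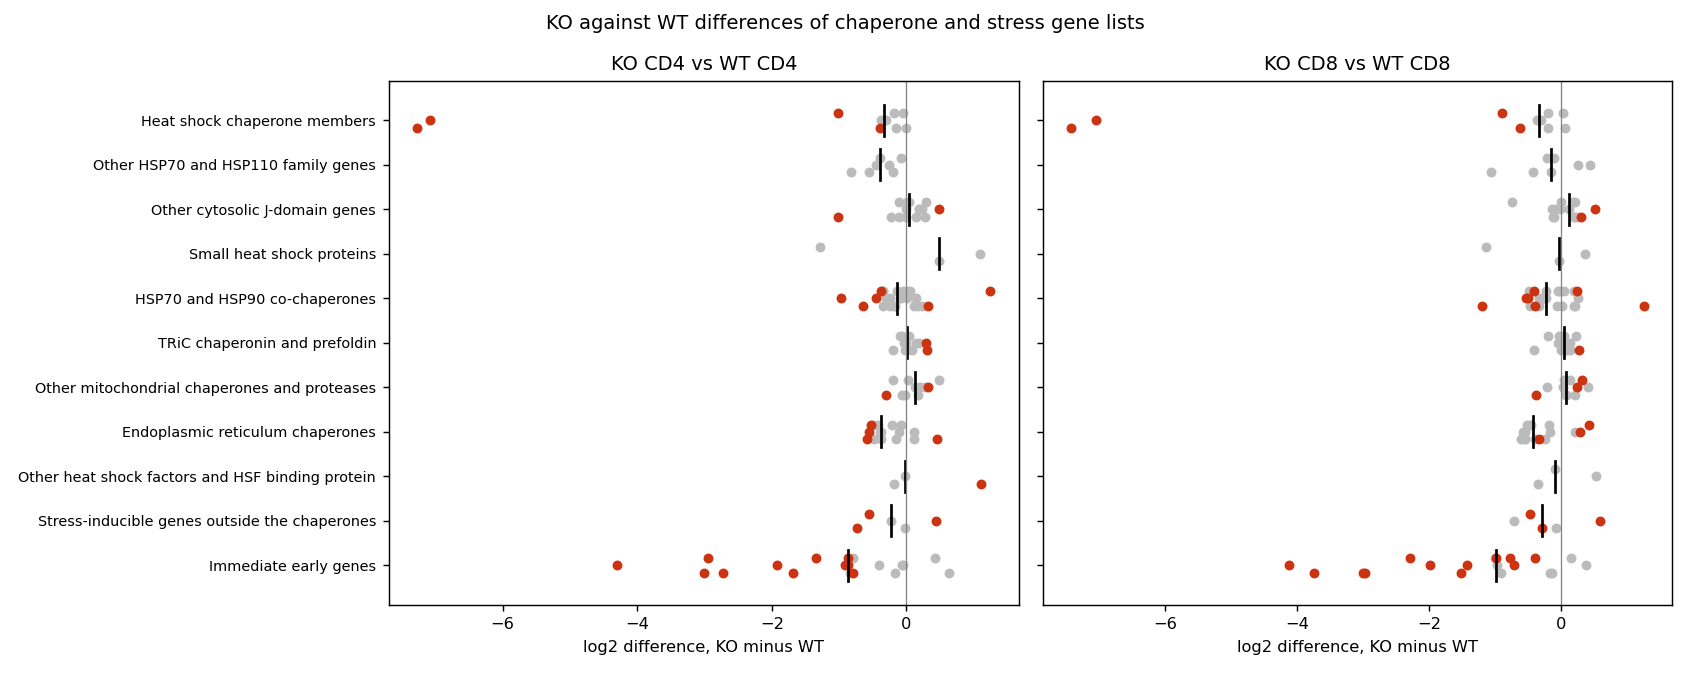
Log2 difference between KO and WT cells (x axis) of the genes of each list (y axis), in CD4+ cells on the left and CD8+ cells on the right. Points are genes, red where limma passed the threshold (for the 10 heat shock chaperone members and *Fosb* a description only), and black bars are list medians. *Hspa1a* and *Hspa1b* stand apart at -7.05 or below, the median of all other chaperones is -0.06 in CD4+ and -0.04 in CD8+ cells, that of the endoplasmic reticulum list -0.38 and -0.42, and the immediate early genes extend to -4.30.

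Of 19 immediate early genes tested, which rise within minutes of many stimuli and need no new protein, 11 fell in CD4+ cells of KO animals (57.9%, beside 9.77% of all genes) and 12 in their CD8+ cells (63.2%, beside 12.5%), and 0 rose, with medians of -0.86 and -0.98. Those that did not pass included *Dusp2* (0.63 and 0.16) and *Ier3* (0.42 and 0.38). The labels give no sorting date or batch, so for these genes as for *Hspa1a* the genotype and any difference in how KO and WT samples were handled cannot be told apart. In CD4+ cells the count was 7 without KO animal 2 or WT animal 2 or 3, 6 without WT animal 5 and 5 without WT animal 6, and 7 with edgeR. In CD8+ cells it was 8 to 13 without single libraries. *Fosb*, a subunit of AP-1, was at 801, 1151, 2102 and 3226 normalized counts in WT CD4+ cells of animals 2, 3, 5 and 6, and at 51.1 to 152 in KO CD4+ cells (-4.30, SE 0.44). In CD8+ cells it was at 722, 1129, 1604 and 1931 in WT and at 21.6 to 197 in KO libraries (-4.12, SE 0.58). The fall of *Fosb* was known when the lists were written, so its values are a description, and it is counted in the 11 and the 12. *Fos* and *Jun*, the partners that form AP-1, fell as well. The log2 difference of *Fos* was -3.01 (SE 0.36, adjusted p = 0.00182) in CD4+ and -3.00 (SE 0.33, adjusted p = 0.000886) in CD8+ cells. That of *Jun* was -2.72 (SE 0.34, adjusted p = 0.00211) and -2.97 (SE 0.56, adjusted p = 0.00649).

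The genes most like *Hspa1a* over the 20 libraries were ranked by Pearson r of log2(normalized count + 1), among genes with a mean of at least 50. *Hspa1b* had r = 0.997. The next 8 were *Tank* (0.954), *Fos* (0.954), *Ppp1r15a* (0.954), *Jun* (0.947), *Rbm39* (0.942), *Exd2* (0.941), *Fosb* (0.937) and *Prpf38b* (0.932), of which 3 are immediate early genes and *Ppp1r15a* is a stress gene that restarts translation. Of the chaperones, *Hsph1* had 0.789 and *Hsf1* 0.773, *Hspd1* 0.499, *Dnajb1* 0.449, *Hsp90aa1* 0.434, *Hspe1* 0.271, *Hspa8* 0.104 and *Hsp90ab1* -0.234. These values are a description of libraries that fall into KO and WT clusters and share animals, so the gap between the clusters sets most of each r. Within the 8 WT libraries, from 4 animal numbers, r with *Hspa1a* was 0.999 for *Hspa1b*, 0.972 for *Jun*, 0.971 for *Ppp1r15a*, 0.966 for *Fosb* and 0.912 for *Fos*, against 0.692 for *Tank*, 0.481 for *Prpf38b*, 0.451 for *Rbm39* and 0.0490 for *Exd2*. *Hsph1* (-0.0607) and *Hsf1* (-0.0203), whose KO values were also lower, had no such r, and *Dnajb1* had 0.622. This r pools the subsets, and *Hspa1a* was higher in CD4+ cells while *Hsph1* and *Hsf1* were higher in CD8+ cells. In WT CD8+ cells *Hsf1* rose with *Hspa1a* over animals 2, 3, 5 and 6 (2032, 2126, 2192 and 2275). In WT CD4+ cells it did not rise step by step (1733, 1671, 1711 and 1960). *Hsph1* was lowest in WT animal 3 and, like *Hsf1*, highest in WT animal 6 in both subsets. Within the 12 KO libraries r was 0.979 for *Hspa1b*, 0.731 for *Jun*, 0.702 for *Fos*, 0.632 for *Ppp1r15a* and 0.540 for *Fosb*.

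**Figure D5:**
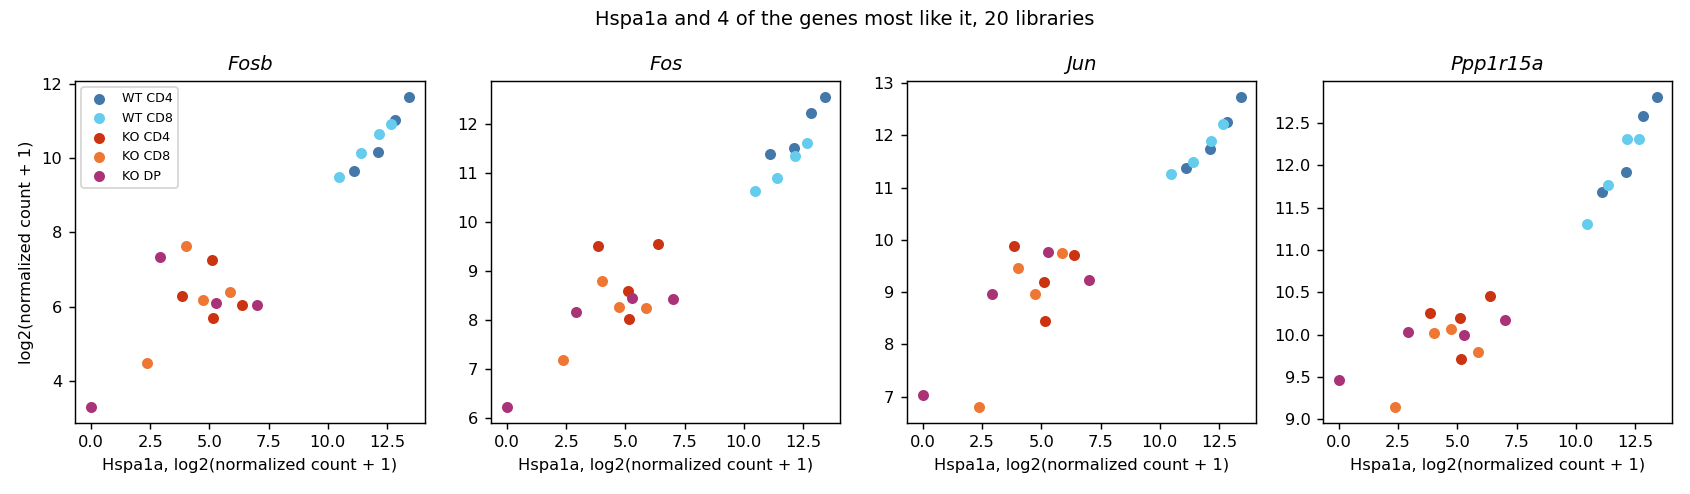
*Fosb*, *Fos*, *Jun* and *Ppp1r15a* (y axes) against *Hspa1a* (x axis) in 20 libraries, all as log2(normalized count + 1), with colours for the groups. KO and WT libraries form separate clusters. In the WT cluster the libraries with more *Hspa1a* also hold more of the other gene (r from 0.912 to 0.972 over 8 libraries), and in the KO cluster the library without *Hspa1a* reads holds the least *Fosb* and *Fos*.

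WT animal 2 had the lowest and WT animal 6 the highest *Hspa1a*, *Hspa1b*, *Fosb*, *Fos* and *Jun* in both subsets. KO animal 2 had the least *Fosb*, *Fos* and *Jun* in all 3 KO subsets and the lowest *Hspa1a* in CD8+ and DP cells. These 3 immediate early genes were named here for being most like *Hspa1a* over the 20 libraries. That they were lower together with it in KO cells follows in part from that choice. They also moved with it among the WT animals, whose libraries had a part in the ranking. Their part in the *Hspa1a* difference was not tested. The 8 myeloid markers, all of them tested, summed to 2260 to 3144 normalized counts in CD4+ libraries and 2736 to 5110 in CD8+ libraries of WT animals, against 719 to 3100 in KO CD4+, 1677 to 4489 in KO CD8+ and 1415 to 6524 in KO DP libraries. Their median log2 difference was -2.37 in CD4+ and -2.44 in CD8+ cells, with 1 lower by the test in KO CD4+ and 0 in KO CD8+ cells. The median level of *Lyz2* was 655 in WT CD4+ and 563 in WT CD8+ cells against 63.0 and 86.1 in KO cells, and *S100a8* and *S100a9* were at 0 in KO animal 2. The medians of *Mpo* and *Elane* were lower in KO cells too, but not all markers fell. The median of *Itgam* was 268 and 1557 in WT CD4+ and CD8+ cells against 398 and 1795 in KO cells. That of *Csf1r* was 167 and 150 against 151 and 155, and that of *Cd14* 11.1 and 8.84 against 8.00 and 17.7. KO animal 3, whose *S100a8* lay within or above the WT range, held 82.1, 25.8 and 126.6 normalized counts of *Hspa1a* in its CD4+, CD8+ and DP cells. The part of the myeloid markers in the difference was not tested. In sorted bulk cells, fewer cells that express a gene and less RNA per cell cannot be told apart. The summed B cell markers moved with the genotype as well, and their part in the result was not tested.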

How the data were processed

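RNA-Seq was performed on 20 libraries of sorted splenic T cells. The authors prepared strand-specific poly(A) libraries, aligned 47-base paired-end reads to mm10 (GRCm38) with STAR (2.7.2b in the submitters' processing notes, another version in the published methods), counted pairs per UCSC gene by strand, and normalized with DESeq2. The deposited table holds signal, that is, counts that the authors divided by a size factor. Multiplying by that factor returned whole reads for 100% of the values (tolerance 0.01).

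Groups and replicate numbers were taken from the sample labels. Equal numbers of a genotype were read as the same animal, which the labels do not state. KO and WT cells, CD4+ and CD8+ cells, and DP and single-positive cells were compared with limma 3.58.1 in R 4.3.3 (mean-variance trend) on log2(normalized count + 1), using the libraries compared and genes with a mean of at least 10. P values are 2-sided and Benjamini-Hochberg adjusted over all genes tested, with a threshold of 0.05. They set the difference between groups against the spread between libraries of a group. Without a block, that spread includes what libraries of the same number share. Precision is set by 4 libraries per group. No 2 libraries of a group agreed within sampling noise (lowest chi-square over its degrees of freedom 11.0). In simulated data for KO against WT CD4+ cells, limma recovered 82% of 200 genes of 12391 changed by 1 log2 unit, with 7.34% false among its calls, and for WT CD4+ against WT CD8+ cells 94.5% with 5.03% (12559 genes). The changed genes were drawn from those with a mean of at least 50 reads, and the libraries were simulated as independent. The simulation thus does not cover lower counts or effects that libraries of the same number share.

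The 10 genes and all lists were chosen with earlier results of these data known, which named *Hspa1a*, *Hspa1b* and *Fosb* as lower in KO cells. Outside the 10, genes are named where they are among the 3 largest differences of their list past the threshold in a subset with a mean of at least 50, or among the 8 most like *Hspa1a*. *Hspa1l*, *Hspa4*, *Cryab*, *Hsf2*, *Hsbp1*, *Dusp2*, *Ier3*, *Tomm34*, *Cdc37l1*, *Bag1*, *Stub1*, *Sugt1*, *Chordc1* in CD8+ cells, *Sil1* in CD4+ cells and the cell markers are named outside this rule, chosen after their values were seen. Exon lengths, gene positions and promoters are RefSeq for GRCm38.p6, and 47-base windows were compared with GENCODE transcripts. Alternatives were quantile normalization, scaling to a common 75th percentile, a pseudocount of 10, a minimum mean of 50 or none, a block for the animal number, a joint fit of the 20 libraries, fits without 1 library each, and tests of the whole reads by DESeq2 1.42.0 and by the quasi-likelihood method of edgeR 4.0.16. Deviations from group means correlated between equal numbers within a genotype (r from 0.412 to 0.498 for KO CD4+ and CD8+, 0.271 to 0.538 for KO DP with either, and 0.120 to 0.196 for WT) and not between KO and WT (-0.00240 to 0.0990), so numbers pair libraries within a genotype only. Bisulfite data were not used here, and some genes of the lists are counted but not reported by name.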

Additional observations from a re-analysis of the deposited data

Results flagged for a closer look

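Of 50 sets of 4 libraries (10 genes in 5 groups), 2 held a library far from the other 3, where chance alone marks about 1 set in 20. *Dnajb1* in KO CD4+ cells was at 4594 normalized counts in animal 3, against 4107 to 4141 in the others, and stayed within the WT range of 4401 to 4920. *Hspe1* in KO DP cells was at 9001 normalized counts in animal 3, against 4070 to 4424 in the others, in the library with the fewest genes read (11783).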

How the results depend on the processing

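The log2 ratio of *Hspa1a* and *Hspa1b* to *Hspa8* kept its sign and stayed within 1 SD with *Hsp90ab1* as the denominator, with *Hspa1a* alone, with a pseudocount of 10 and without each library (-7.62 to -6.57 in CD4+ cells, -7.98 to -6.35 in CD8+ cells). As a description of the contrasts that chose the members, without single libraries the count of chaperone members lower in KO cells was 3 to 6 in both subsets. The KO and WT animals with numbers 2 and 3 do not pair, so the replicate block for KO against WT is only a fit on fewer libraries. It called 27 of 12363 genes in CD4+ and 85 of 12342 in CD8+ cells, beside 2274 and 3118 in the main fit. It left 2 members lower in each subset (*Hspa1a* and *Hspa1b*), and 3 and 4 immediate early genes lower. Of the other chaperones, 0 were lower in either subset, 0 higher in CD4+ and 1 higher in CD8+ cells. With so few genes called, these counts of other chaperones are no result about them. With the block, 4 members passed between WT CD4+ and CD8+ cells and 1 between KO CD4+ and CD8+ cells, and it changed no other member's call. In CD4+ cells the joint fit gave 4 other chaperones lower, 5 higher and 7 immediate early genes lower, and edgeR gave 5 other chaperones lower and 7 immediate early genes lower. In CD8+ cells other chaperones lower numbered 4 without a filter and 4 in the joint fit. The joint fit left 0 members between WT CD4+ and CD8+ cells. The causes of these shifts were not tested. Without single libraries, other chaperones lower numbered 1 to 23 in CD4+ and 3 to 27 in CD8+ cells, those higher 3 to 12 and 5 to 12, immediate early genes lower in CD4+ cells from 5 to 12, and members passing between WT CD4+ and CD8+ cells from 2 to 4. Depth limits *Hspa1a* and *Hspa1b* in KO libraries, where single reads shift the log2 values: with a pseudocount of 10 on both genes the ratio differed by -6.57 in CD4+ and -6.35 in CD8+ cells. No result changed sign past the threshold.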
